A study of Mus musculus with 9 samples.

Results

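Antimicrobial peptides and alarmins are small secreted proteins that epithelial cells and neutrophils release when skin is injured or inflamed. The genes described here were the 10 rows of the deposited table named S100a8, S100a9, Lcn2, Slpi, Saa3, Defb3, Defb14, Defb4, Camp and Reg3g, out of 29205 genes in all. They were followed in back skin RNA of male BALB/c mice aged 6 to 8 weeks, in 3 groups of 3 libraries, named control, IMQ and LYS-High. Every mouse was shaved and depilated, and no transgene or deletion was present in any group. The control group received no cream and no drug. The IMQ group received 62.5 mg of a 5% imiquimod cream on the back on 5 days in a row. The LYS-High group received the same cream and also Longkui Yinxiao Soup (LYS), a herbal decoction, by gavage from the first day until the day before collection. All skin was collected on day 13. The labels give the LYS treatment without a dose, and the name LYS-High follows the study's methods. Imiquimod activates Toll-like receptor 7, and repeated application gives a psoriasis-like inflammation that resembles the disease in part and resolves once the cream is stopped. There was no group with LYS alone, so the effect of LYS on skin without imiquimod was not measured here. The study's methods name no sham gavage and no cream without imiquimod. LYS thus cannot be told apart from its gavage, nor imiquimod from the base of the cream.

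S100A8 and S100A9 pair to form calprotectin, which binds zinc and manganese that microbes need and acts as an alarmin through Toll-like receptor 4. Lipocalin 2 traps bacterial siderophores that carry iron, serum amyloid A3 is a local acute phase protein, and SLPI inhibits neutrophil serine proteases. Beta-defensins and cathelicidin (Camp) disrupt microbial membranes, and REG3G binds the peptidoglycan of Gram-positive bacteria. In psoriatic epidermis many, though not all, genes of this kind are known targets of IL-17, IL-22, IL-1 and IL-36, which act through IκBζ, C/EBP and NF-κB factors.

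The promoter sequences of the 6 genes whose values carry the results below are shown first, as a description. A link between these letters and the levels of the genes was not tested. Each is the 250 bases before the RefSeq start on GRCm38.p6, printed 5′ to 3′ on the gene's own strand. Capitals mark matches on either strand to TTGCNNAA, a motif of C/EBP factors, or to the core promoter box TATAAA.
S100a8, chr3:90668821-90669070, plus strand: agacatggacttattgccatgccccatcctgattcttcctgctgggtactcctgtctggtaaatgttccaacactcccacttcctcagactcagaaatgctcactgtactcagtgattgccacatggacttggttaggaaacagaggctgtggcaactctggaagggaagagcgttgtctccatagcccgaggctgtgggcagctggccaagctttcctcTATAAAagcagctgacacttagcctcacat
S100a9, chr3:90695722-90695971, minus strand: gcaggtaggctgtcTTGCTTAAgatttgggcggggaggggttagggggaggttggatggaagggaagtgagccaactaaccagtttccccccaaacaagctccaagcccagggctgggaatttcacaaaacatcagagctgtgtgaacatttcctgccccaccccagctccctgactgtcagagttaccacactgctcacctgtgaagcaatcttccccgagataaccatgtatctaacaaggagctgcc
Lcn2, chr2:32387740-32387989, minus strand: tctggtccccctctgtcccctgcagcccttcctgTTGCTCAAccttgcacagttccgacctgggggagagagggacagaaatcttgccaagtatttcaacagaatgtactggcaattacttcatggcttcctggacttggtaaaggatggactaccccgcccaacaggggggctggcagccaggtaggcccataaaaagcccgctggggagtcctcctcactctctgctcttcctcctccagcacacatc
Slpi, chr2:164356508-164356757, minus strand: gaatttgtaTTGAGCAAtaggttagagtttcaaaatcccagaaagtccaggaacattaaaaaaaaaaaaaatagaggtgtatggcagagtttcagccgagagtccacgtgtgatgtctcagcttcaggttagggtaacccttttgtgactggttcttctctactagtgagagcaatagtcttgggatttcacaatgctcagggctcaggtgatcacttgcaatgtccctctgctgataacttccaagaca
Saa3, chr7:46715677-46715926, minus strand: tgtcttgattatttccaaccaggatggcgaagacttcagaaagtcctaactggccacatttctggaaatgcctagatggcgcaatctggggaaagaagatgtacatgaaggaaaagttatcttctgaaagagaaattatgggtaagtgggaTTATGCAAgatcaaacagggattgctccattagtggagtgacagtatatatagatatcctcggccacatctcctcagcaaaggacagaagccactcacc
Defb3, chr8:19293111-19293360, plus strand: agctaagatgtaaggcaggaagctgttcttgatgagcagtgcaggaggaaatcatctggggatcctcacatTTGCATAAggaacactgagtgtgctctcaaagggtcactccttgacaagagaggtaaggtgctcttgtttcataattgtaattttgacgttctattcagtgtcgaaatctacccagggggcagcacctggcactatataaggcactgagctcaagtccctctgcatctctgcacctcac

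RefSeq promoters were found for 8 of the 10 genes, and 5 of these 8 held TTGCNNAA. The first base of the match lay 236 bases before the start in S100a9, 216 in Lcn2, 179 in Defb3, 241 in Slpi and 99 in Saa3. In Slpi and Saa3 the match lay on the opposite strand, and it reads TTGAGCAA and TTATGCAA in the printed direction. TTGCNNAA was found in 9.56% of all 32851 promoters of this length. S100a8 had no such match but held TATAAA with its first base 30 bases before the start, and Reg3g also held TATAAA, which 12.37% of all promoters did. None of the 8 promoters held the NF-κB motif, searched as a pair of forms that can match the same site and found in 0.55% of all promoters. The AP-1 motif TGANTCA, found in 6.75% of all promoters, and the STAT motif TTCNNNGAA, found in 7.02%, had no match either. All motifs were searched on both strands, and a match here is a description of the letters only.

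Several of these genes are neighbours. S100a8 (ENSMUSG00000056054, chromosome 3, 90668978 to 90670035, plus strand) and S100a9 (ENSMUSG00000056071, chromosome 3, 90692632 to 90695721, minus strand) lay 22596 bases apart in GRCm38. Defb14 (ENSMUSG00000046354, 19194357 to 19195212), Defb4 (ENSMUSG00000059230, 19198706 to 19201545) and Defb3 (ENSMUSG00000039775, 19293360 to 19295291) stood in this order on the plus strand of chromosome 8, separated by 3493 and 91814 bases. Lcn2 (ENSMUSG00000026822, 32384633 to 32388252) and Slpi (ENSMUSG00000017002, 164354070 to 164389095) lay on the minus strand of chromosome 2. Camp (ENSMUSG00000038357) lay on chromosome 9 from 109847379 to 109849617, Reg3g (ENSMUSG00000030017) on chromosome 6 from 78466269 to 78468872 and Saa3 (ENSMUSG00000040026) on chromosome 7 from 46711998 to 46715700, all on the minus strand. Stretches of 50 bases shared with the transcripts of other genes were absent from 8 of the 10 genes. They made up 5.68% of Defb4, shared with 1 other gene, and 4.15% of Saa3, so the counts of these genes are less certain. Slpi overlaps a microRNA gene, Mir7678, on its own strand.

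Total counts per library ranged from 14658645 to 19609878. Levels are given as CPM, the counts of a gene scaled to library size with TMM. DEGs passed 0.05 on the p that edgeR adjusts over all genes tested, and their log2 fold change lay beyond 0.58 in either direction. Within groups, the libraries differed beyond counting noise (18.4 to 109 units of chi-square for each degree of freedom), so each stood as 1 replicate. The labels do not say which mouse each library came from, so p-values measure the spread between these libraries. Without scaling beyond library totals, the median log2 fold change of all genes moved from -0.06 to -0.51 for IMQ against control, from 0.04 to 0.29 for LYS-High against IMQ and from -0.01 to -0.15 for LYS-High against control. The direction of every gene of the 10 that was tested held under this setting, except that of Camp in IMQ compared with control skin. The split of DEGs moved with it, from 3854 higher and 4291 lower to 2390 and 6854 for IMQ against control, and from 2412 and 2064 to 1917 and 2706 for LYS-High against control.

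**Figure D1:**
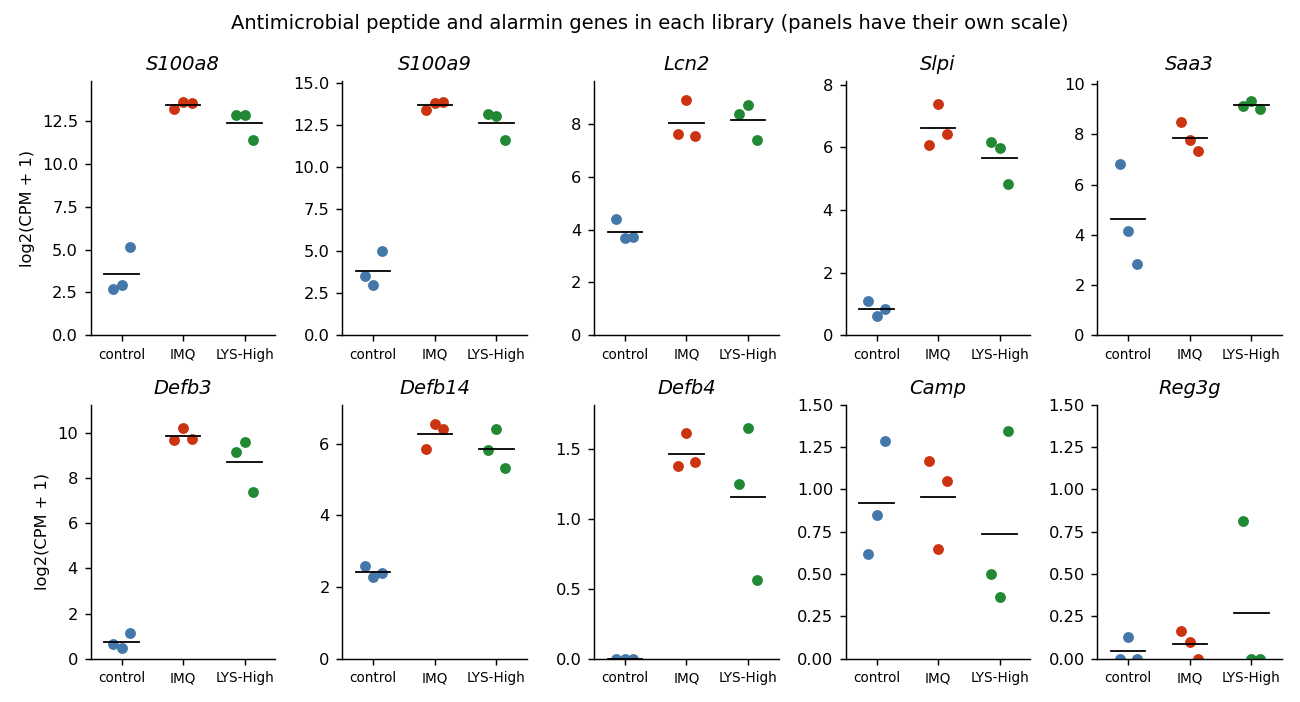
Level of each gene as log2(CPM + 1) in each library, with 1 point per library for every group and a line at the group mean; every panel has its own vertical scale. All IMQ libraries lay above all control libraries for S100a8, S100a9, Lcn2, Slpi, Saa3, Defb3, Defb14 and Defb4, while Camp and Reg3g stayed under 2 CPM in every library.

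Of the 10 genes, 9 could be tested in IMQ compared with control skin, and 8 of these rose and none fell. Over all 15976 genes tested, 24.1% rose and 26.9% fell. The CPM ranges of the groups did not overlap for the same 8 genes, all higher in the IMQ group, as for 31.6% of all genes tested. The median log2 fold change was 7.08 over the 9 genes and -0.06 over all genes. In bulk skin, a change in the number of cells that make an RNA cannot be told apart from a change in RNA per cell.

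The calprotectin genes were the most abundant of the group. S100a8 had 5.47, 6.53 and 34.4 CPM in the control libraries, 9743, 12518 and 12449.5 CPM in the IMQ libraries and 7464, 7595 and 2692 CPM in the LYS-High libraries. The control libraries were low, with the third above the other 2, and the IMQ libraries were close to each other. S100a8 rose with a log2 fold change of 9.60 (± 0.93 SE, edgeR adjusted p = 9.7e-05) in the IMQ group, a 777-fold higher level. Without control 3, the library with the highest level in its group, the log2 fold change was 10.97.

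S100a9 had 10.6, 7.00 and 30.6 CPM in the control group, 10691, 14437 and 15006 CPM in the IMQ group and 9292, 8651 and 3192 CPM in the LYS-High group. As for S100a8, the third control library was the highest of its group and the third LYS-High library the lowest of its own, and no 2 groups overlapped. The log2 fold change of S100a9 in IMQ compared with control skin was 9.75 (± 0.75 SE, edgeR adjusted p = 3.73e-05), and 10.63 without control 3. Compared between genes per length, S100a9 and S100a8 had mean FPKM ranks 1 and 2 among all genes in the IMQ group, at 21925 ± 2400.0 and 14289 ± 979 FPKM (SD, n = 3).

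Lcn2 had 19.9, 11.7 and 12.0 CPM in the control group, 197, 478 and 187 CPM in the IMQ group and 334, 416 and 169 CPM in the LYS-High group. The IMQ and LYS-High libraries covered the same range, all above the control libraries. Its log2 fold change in the IMQ group was 4.37 (± 0.44 SE, edgeR adjusted p = 0.000112), and 3.78 without IMQ 2.

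Slpi, the protease inhibitor, had 1.12, 0.520 and 0.792 CPM in the control group, 66.5, 167 and 84.6 CPM in the IMQ group and 70.6, 62.5 and 27.4 CPM in the LYS-High group. The second IMQ library was the highest, and the highest LYS-High library lay above the lowest IMQ library. Slpi rose with a log2 fold change of 7.08 (± 0.47 SE, edgeR adjusted p = 2.15e-05) in the IMQ group.

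Saa3 was the most variable of these genes in untreated skin, with 113, 16.8 and 6.19 CPM in the control libraries. It had 358, 219 and 162 CPM in the IMQ libraries and 564, 637 and 519 CPM in the LYS-High libraries. The first control library stood well above the other 2, and the 3 groups did not overlap, with the LYS-High group highest. Saa3 rose in the IMQ group with a log2 fold change of 2.50 (± 0.91 SE, edgeR adjusted p = 0.0429), and it rose in LYS-High compared with control skin with a log2 fold change of 3.66 (± 0.96 SE, edgeR adjusted p = 0.0249). The first call was lost without control 2, control 3, IMQ 1 or IMQ 2 and without scaling, and without control 1 the log2 fold change was 4.47. The call of LYS-High against control was lost without control 2 (edgeR adjusted p = 0.0876) or LYS-High 2 (edgeR adjusted p = 0.0628), and without control 1 that log2 fold change was 5.64.

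The beta-defensins covered a wide range of levels. Defb3, which is inducible like human beta-defensin 2, had 0.586, 0.378 and 1.24 CPM in the control group, 827, 1196 and 855 CPM in the IMQ group and 577, 786 and 167 CPM in the LYS-High group. The control libraries held between 8 and 25 counts of Defb3 each, and the third LYS-High library was the lowest of those with cream. Its log2 fold change of 10.40 (± 0.43 SE, edgeR adjusted p = 4.62e-06) in the IMQ group was the largest of the 9 genes tested, and it was higher by 0.60 on the log2 scale without control 3.

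Defb14, the ortholog of human beta-defensin 3 and a ligand of CCR6, was already present in the control libraries at 4.98, 3.88 and 4.26 CPM. It had 56.8, 91.7 and 83.8 CPM in the IMQ group and 55.1, 83.3 and 39.2 CPM in the LYS-High group, whose ranges overlapped. Defb14 rose with a log2 fold change of 4.20 (± 0.22 SE, edgeR adjusted p = 9.45e-06) in the IMQ group. Defb4 had no count in any control library, 27, 29 and 23 counts in the IMQ libraries and 20, 37 and 8 counts in the LYS-High libraries. It was thus at least 12.2-fold higher in the IMQ group and at least 9.11-fold higher in the LYS-High group than a floor of 3 counts per control library, and it rose in the IMQ group (edgeR adjusted p = 0.000285).

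Camp and Reg3g did not share this pattern. Camp, the cathelicidin gene that neutrophil precursors transcribe, had between 8 and 29 counts in the control and IMQ libraries and 6, 5 and 26 counts in the LYS-High libraries. Its groups overlapped in all comparisons, and its log2 fold change in IMQ compared with control skin was 0.13 (± 0.48 SE, edgeR adjusted p = 0.833). Reg3g had at most 2 counts in any control or IMQ library, and 11, 0 and 0 counts in the LYS-High libraries, too few for a test. At this depth no difference of Reg3g was detectable.

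**Figure D2:**
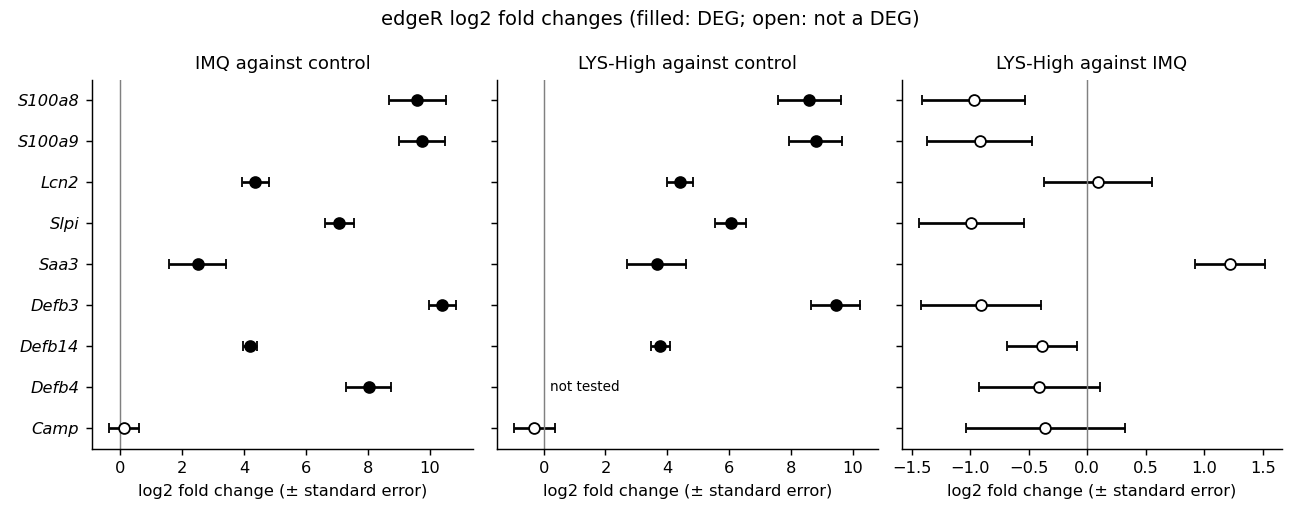
Log2 fold change of each gene with its standard error in IMQ compared with control skin, LYS-High compared with control skin and LYS-High compared with IMQ skin, with filled points for DEGs; the third panel has a narrower scale. In the third panel no point is filled, and Saa3 at 1.22 and Lcn2 at 0.09 are the points above 0; the fitted value of Defb4 against the control group, where it had no counts, depends on the prior count.

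In LYS-High compared with control skin, 8 of the 10 genes passed the filter on low counts and 7 of them rose. Over all 16003 genes tested, 15.1% rose and 12.9% fell. The log2 fold changes were 8.60 for S100a8 (edgeR adjusted p = 0.00144), 8.80 for S100a9 (edgeR adjusted p = 0.000729), 4.41 for Lcn2 (edgeR adjusted p = 0.00062) and 6.05 for Slpi (edgeR adjusted p = 0.000382). Defb3 rose with a log2 fold change of 9.45 (edgeR adjusted p = 0.000458) and Defb14 with 3.77 (edgeR adjusted p = 0.000388), and Saa3 was the remaining DEG. Without control 3 the values were 9.97 for S100a8, 9.66 for S100a9 and 10.05 for Defb3. The value of Camp was -0.30 (± 0.66 SE, edgeR adjusted p = 0.759). For 8 of the 10 genes, Defb4 included, every LYS-High library lay above every control library, as for 25.0% of all genes tested. The median log2 fold change was 5.23 over the 8 genes tested and -0.01 over all genes. Defb4 was not among the genes tested here, so this median and that of IMQ against control do not cover the same genes. Both comparisons against the control group share its libraries.

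The effect of LYS, together with its gavage, on these genes in imiquimod skin is measured by LYS-High compared with IMQ skin. None of the 9 genes tested was a DEG by edgeR, and neither was any of the 15460 genes tested (0%), with 0.0591 as the smallest adjusted p. Before adjustment, 1 of the 9 genes (Saa3) and 35.2% of all genes lay under 0.05, and DESeq2 called 2 of the 9 (S100a8 lower and Saa3 higher) and 21.9% of all genes. With all 9 libraries DESeq2 called 0 of the 9, with adjusted p = 0.204 for S100a8 and 0.335 for Saa3. Every LYS-High library lay below every IMQ library for S100a8, S100a9 and Defb3, as for 19.3% of all genes tested, and above every IMQ library for Saa3, as for 19.2%. For Defb3 this separation was lost in FPKM, which is scaled by library totals, where LYS-High 2 (2966 FPKM) lay above IMQ 1 (2819 FPKM) and IMQ 3 (2565 FPKM). The median log2 fold change was -0.41 over the 9 genes and 0.04 over all genes.

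S100a8 averaged 11570.3 ± 1583 CPM in IMQ skin and 5917 ± 2794 CPM in LYS-High skin (SD, n = 3). This was a log2 fold change of -0.97 (± 0.44 SE, edgeR adjusted p = 0.163), and DESeq2 on the same 6 libraries (adjusted p = 0.0495) was the only one of 15 alternatives that called it, over which its adjusted p reached 0.42. The values of S100a9 were 13378 ± 2344 and 7045 ± 3352 CPM (SD, n = 3), with a log2 fold change of -0.92 (± 0.45 SE, edgeR adjusted p = 0.187). The larger part of the spread of both genes came from the third LYS-High library, in which both lay well under the other 2.

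For Slpi the log2 fold change was -0.99 (± 0.45 SE, edgeR adjusted p = 0.161), and for Defb3 it was -0.91 (± 0.51 SE, edgeR adjusted p = 0.237). Defb14 and Defb4 differed less, with log2 fold changes of -0.39 (± 0.30 SE, edgeR adjusted p = 0.377) and -0.41 (± 0.52 SE, edgeR adjusted p = 0.597). Lcn2 stood at 0.09 (± 0.46 SE, edgeR adjusted p = 0.901) and Camp at -0.36 (± 0.68 SE, edgeR adjusted p = 0.73). The spread of the libraries leaves these differences unresolved in either direction.

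Saa3 went the other way. It averaged 246 ± 101 CPM in IMQ skin and 573 ± 59.6 CPM in LYS-High skin (SD, n = 3), a log2 fold change of 1.22 (± 0.30 SE, edgeR adjusted p = 0.0606), higher in 3 of 3 libraries. It passed the threshold under 4 of 15 alternatives, namely without the filter on low counts, with DESeq2 (adjusted p = 0.00197), without IMQ 1 (edgeR adjusted p = 0.0406) and without LYS-High 1 (edgeR adjusted p = 0.034). Over the 15 alternatives its log2 fold change lay between 0.99 and 1.59 and its adjusted p between 0.00197 and 0.335. The related Saa2 had 0.928, 0 and 0.594 CPM in the control group, 2.61, 1.85 and 0.716 CPM in the IMQ group and 9.92, 13.0 and 11.3 CPM in the LYS-High group, with a log2 fold change of 2.71 (edgeR adjusted p = 0.0591) in LYS-High compared with IMQ skin. Saa1, the other acute phase form, did not differ in this way, with a mean of 27.7 CPM in the IMQ group and 29.6 CPM in the LYS-High group.

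**Figure D3:**
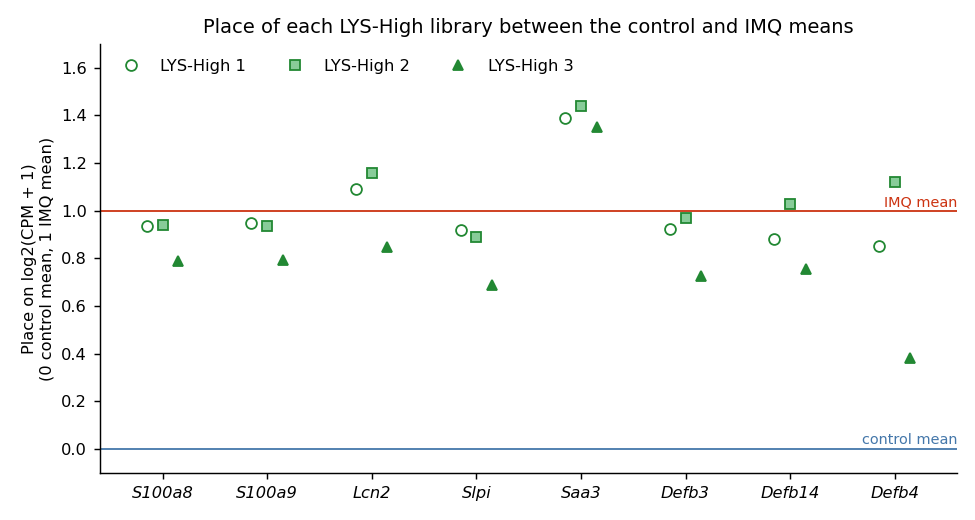
Place of each LYS-High library on log2(CPM + 1) for the 8 genes that were higher in the IMQ group, where 0 is the control mean and 1 the IMQ mean, with a different marker for each library. LYS-High 3 was the lowest of its group for every one of the 8 genes, and Saa3 lay between 1.35 and 1.44, above the IMQ mean in every library.

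On a log2(CPM + 1) scale running from 0 at the mean of the control libraries to 1 at that of the IMQ libraries, LYS-High lay at 0.888 ± 0.0865 for S100a8, 0.893 ± 0.0875 for S100a9, 0.873 ± 0.129 for Defb3, 0.891 ± 0.139 for Defb14 and 0.832 ± 0.126 for Slpi (SD, n = 3). Lcn2 lay at 1.03 ± 0.164, Defb4 at 0.786 ± 0.375 and Saa3 at 1.40 ± 0.0456. The median over the 8 genes was 0.929 in LYS-High 1, 1.0 in LYS-High 2 and 0.772 in LYS-High 3. LYS-High 3 was the lowest of the LYS-High libraries for 8 of 8 genes, IMQ 1 the lowest of the IMQ libraries for 6 of 8, and IMQ 2 the highest for 6 of 8. Saa3 was highest in IMQ 1, and in the control group no library stood out in this way, with 5, 3 and 0 of the 8 genes highest in control 1, control 3 and control 2.

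The 10 genes took a sizeable part of the libraries with cream. They held 0.0112 ± 0.00629% of the counts of a control library, 2.28 ± 0.194% of an IMQ library and 1.48 ± 0.655% of a LYS-High library (SD, n = 3). In the LYS-High group the shares were 1.82%, 1.89% and 0.722%, the last with a Wilson 95% interval of 0.718 to 0.727% that covers counting error only. S100a8 and S100a9 made up 93.6 ± 1.38% of the 10 genes' counts in IMQ skin and 88.9 ± 2.45% in LYS-High skin (SD, n = 3), against 10.3 to 71.5% in the control libraries. The share of Saa3 in these counts was 0.56 to 1.63% in the IMQ group, 3.07 to 7.62% in the LYS-High group and 6.81 to 72.4% in the control group.

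**Figure D4:**
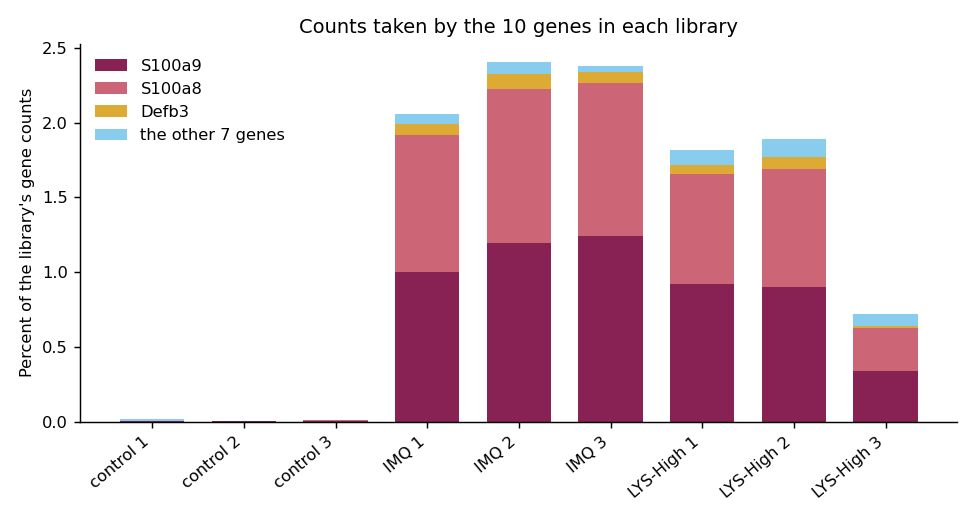
Percent of each library's counts held by S100a9, S100a8, Defb3 and the other 7 genes, as stacked bars from 0. The 3 control libraries hold at most 0.0177%, the IMQ libraries between 2.06 and 2.41%, and LYS-High 3 with 0.722% holds less than the other LYS-High libraries.

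The ratio of S100a8 to S100a9 FPKM was 0.654 ± 0.031 over the IMQ libraries and 0.633 ± 0.028 over the LYS-High libraries (SD, n = 3), a difference smaller than the spread. In the control group, with far fewer counts, it ranged from 0.386 to 0.845. By mean FPKM in the IMQ group, the order of levels was S100a9, S100a8, Defb3 (2993 FPKM), Defb14 (324 FPKM), Lcn2 (93.3 FPKM), Saa3 (83.1 FPKM), Slpi (76.3 FPKM), Defb4 (3.35 FPKM), Camp (1.11 FPKM) and Reg3g. Saa3 overlapped Lcn2 above it and Slpi below it, and the other neighbours in this order did not overlap. In the LYS-High group Saa3 (226 FPKM) stood above Lcn2 (119.6 FPKM) and overlapped Defb14 (298 FPKM), and S100a9 and S100a8 overlapped. In the control group no neighbours were separate except Slpi and Reg3g.

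Of 10370 genes with a mean of at least 10 CPM, the 5 with profiles most like the median of the 10 genes over the 9 libraries were Hbegf, Cd300lf, Csta1, Cxcr2 and Cstdc5. The mean absolute difference from the median profile, on log2(CPM + 1) relative to the control mean, was 0.293 for Hbegf, 0.377 for Cd300lf, 0.381 for Csta1, 0.391 for Cxcr2 and 0.409 for Cstdc5. Hbegf, a ligand of the EGF receptor, had 5.03, 4.78 and 6.93 CPM in the control group, 108, 162 and 123 CPM in the IMQ group and 146, 99.7 and 56.7 CPM in the LYS-High group. Cxcr2 is the receptor for CXC chemokines on neutrophils.

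The wider set of antimicrobial and acute phase genes moved less uniformly. Of 16 tested in IMQ compared with control skin, 10 rose and 3 fell, with a median log2 fold change of 2.28. Pglyrp4 and Pglyrp3, peptidoglycan recognition proteins of epithelia, rose with log2 fold changes of 6.71 and 4.82, S100a7a, the mouse psoriasin, with 6.17, and Wfdc12, a relative of Slpi, with 5.66. Retnla fell by 4.30 on the log2 scale. Of the other S100 genes, 4 of 10 rose and 6 fell, among them S100a3 of the hair cuticle with a log2 fold change of -7.15, and S100a10 with -2.04. In LYS-High compared with control skin, 9 of 15 of the antimicrobial genes rose and 3 fell, and 1 of 10 of the other S100 genes rose and 4 fell. The S100 gene that rose there was S100a7a, which is on both lists and is counted in each. Of 5 other alarmins tested, Il1a (3.73), Il33 (2.53) and Tslp (1.52) rose in the IMQ group and Hmgb1 fell, with a log2 fold change of -1.32, and the counts in LYS-High compared with control skin were also 3 and 1.

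Of the receptors through which these peptides act, 3 of 10 were higher and 3 lower in IMQ compared with control skin. These counts lie near the shares over all genes tested, 24.1% higher and 26.9% lower. Fpr2, a formyl peptide receptor that also binds serum amyloid A and cathelicidin, rose with a log2 fold change of 3.55, Ccr6 with 2.30 and Tlr2 with 1.66. Mrgprb2, a mast cell receptor for cationic peptides, fell by 2.25 on the log2 scale. Tlr4, a receptor of calprotectin, stood at -0.36 (edgeR adjusted p = 0.0548). In LYS-High compared with control skin 3 of 10 rose and 1 fell, beside 15.1% and 12.9% of all genes tested.

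Of 14 listed cytokines that induce these peptides, 11 were tested in IMQ compared with control skin, and 11 rose. In LYS-High compared with control skin, 8 were tested and 8 rose. Of all genes tested, 24.1% and 15.1% rose in these comparisons. Il6, Il20 and Il24 passed the filter on low counts in neither. Il17a, Il17c, Il19 and Il22 had at most 1 count in any control library and passed the filter through counts in skin with cream. A fall of these genes could not have been seen, so the filter partly set this outcome. Il1f6, Il1f8 and Il1f9, which also rose, had at least 283 counts in every control library. The median log2 fold change was 6.39 over the 11 and 4.43 over the 8. These medians cannot be compared directly, since Il17a, Il17c and Il22 passed the filter on low counts only in the first comparison. Il1b rose with a log2 fold change of 9.56, from a mean of 1.43 CPM to 1045 CPM in the IMQ group, and had 374 CPM in the LYS-High group. Its libraries overlapped between these groups, with 346, 1283.5 and 1506 CPM in IMQ and 698, 313 and 111 CPM in LYS-High skin. The log2 fold change of Il1b in LYS-High compared with IMQ skin was -1.48 (± 0.74 SE, edgeR adjusted p = 0.197). The values of Il17c (7.91), Il19 (7.58) and Il22 (7.36) in the IMQ group rest on control means of at most 0.0163 CPM, so they are fitted values and no bounds. Of the receptors and transcription factors of this response, 9 of 11 rose and 1 fell in the IMQ group, with log2 fold changes of 3.11 for Il22ra1, 2.64 for Cebpb, 2.43 for Nfkbiz (IκBζ) and 2.26 for Il17rc, and 8 of 11 rose and none fell in LYS-High compared with control skin.

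Proteases and inhibitors that cut or protect these peptides rose too, 9 of 10 in the IMQ group with 1 lower. Epidermal kallikreins, a family whose members process cathelicidin, led the list, with log2 fold changes of 9.07 for Klk14 and 5.86 for Klk6, and Mmp8, the neutrophil collagenase, stood at 5.73. Prtn3, a serine protease of neutrophil granules, fell by 3.52 on the log2 scale. In LYS-High compared with control skin 9 of 10 rose and none fell.

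Against the IMQ libraries, edgeR called 0 genes in each of these lists. The counts that follow stand beside shares of 35.2% of all genes at an unadjusted p under 0.05 and 21.9% by DESeq2, both directions together, and the antimicrobial and acute phase list lay under both. At that unadjusted p, 3 of 17 antimicrobial and acute phase genes were higher and none lower, 1 of 12 inducing cytokines was higher and 3 lower, and 1 of 10 proteases was higher and 6 lower. DESeq2 called 2 higher, 3 lower, and 1 higher and 5 lower in these lists, in the same order. The S100 genes had 3 higher and 2 lower of 9 at that p, the other alarmins 0 higher and 2 lower of 5, the receptors 4 higher and 0 lower of 10, and the cytokine receptors and transcription factors 1 higher and 3 lower of 11, and DESeq2 called 1 higher, 2 lower, 3 higher, and 1 higher and 3 lower among them. The median log2 fold change was -0.78 for the cytokines and -1.07 for the proteases, beside -0.41 for the 9 tested genes of the group described here and 0.04 for all genes. The cytokines were split, with 5 of 12 above 0 and 7 below. Above 0 were, among others, Il19 (1.01, edgeR adjusted p = 0.113) and Il22 (0.61, edgeR adjusted p = 0.56). Below 0 were, among others, the IL-36 genes Il1f6 (-1.34, edgeR adjusted p = 0.0591), Il1f8 (-1.12, edgeR adjusted p = 0.0591) and Il1f9 (-1.13, edgeR adjusted p = 0.0726). For these IL-36 genes every LYS-High library lay below every IMQ library, as for 19.3% of all genes tested. Among the proteases 2 of 10 lay above 0 and 8 below.

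The markers of cells that make these peptides were read beside them. Of the neutrophil markers, 13 of 15 rose and 1 fell in IMQ compared with control skin, and their summed level was 184 to 248 CPM in the control group, 5988 to 9233 CPM in the IMQ group and 3451 to 5404 CPM in the LYS-High group. Mrgpra2b rose (edgeR adjusted p = 0.00143) from no counts in the control group to 34, 164 and 73 counts in the IMQ libraries. Trem1, an amplifying receptor of neutrophils, and the stefins Stfa2 and Stfa2l1 rose with log2 fold changes of 7.75, 7.23 and 7.20. Most of the sum in the IMQ and LYS-High groups was Stfa3, with means of 6326 and 3540 CPM, beside 108 CPM in the control group. The sum thus follows mainly this gene and is not a measure of neutrophil number. Without Stfa3 the sum was 110 to 133 CPM in the control group and 922 to 1670.3 CPM in the IMQ group. Ly6g, which defines mouse neutrophils, had at most 16 counts in any library and was not tested. Genes of neutrophil granules, made in immature cells, did not move one way. Mpo had 0, 3 and 4 counts in the IMQ libraries and 56, 89 and 101 in the control libraries, and Elane at most 32 counts in any library. Ngp rose in IMQ compared with control skin with a log2 fold change of 4.25 (edgeR adjusted p = 0.00944), on 15, 107 and 11 counts against 5, 2 and 3, and had 155 counts in LYS-High 3. Ltf rose in LYS-High compared with control skin with a log2 fold change of 3.36 (edgeR adjusted p = 0.0219). This rested on 10, 14 and 62 counts against 5, 1 and 4, with LYS-High 3 far above the rest.

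**Figure D5:**
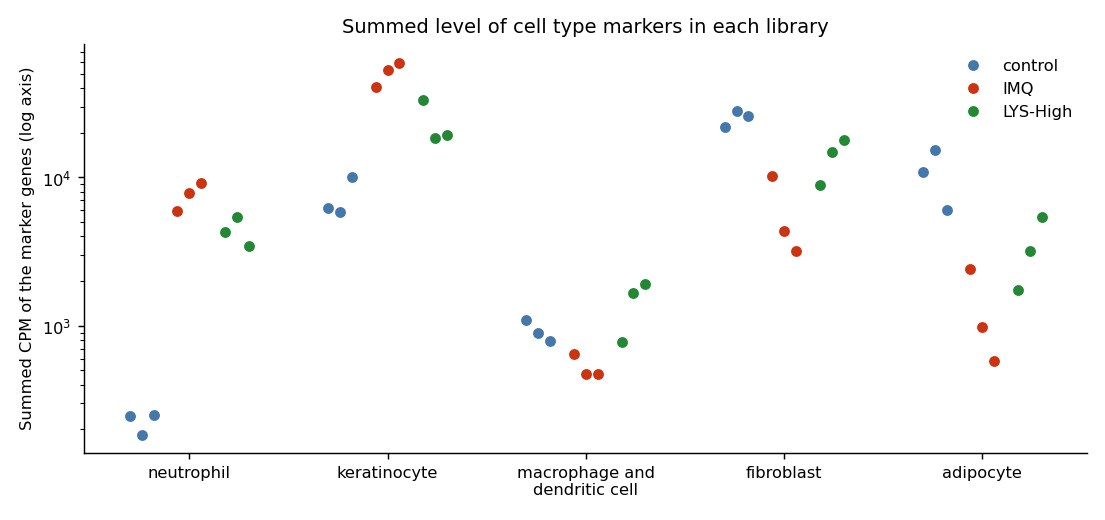
Summed CPM of marker genes of 5 cell types in each library, on a log axis, with 1 point per library. Neutrophil and keratinocyte sums are highest in the IMQ group, while macrophage and dendritic cell, fibroblast and adipocyte sums are lower in the IMQ group than in the control group and lie higher or overlapping in the LYS-High group. Single genes can differ from the sum of their list, as did Itgax and Cd207, which rose in the IMQ group. In the IMQ and LYS-High groups most of the neutrophil sum is Stfa3, and without it the sums of these groups overlap.

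Keratinocyte markers also rose, 8 of 8, led by the cornified envelope gene Lor with a log2 fold change of 3.93, with sums of 5847 to 10028 CPM in the control group, 40681 to 59523 CPM in the IMQ group and 18387 to 33273 CPM in the LYS-High group. The 4 stress keratins, led by Krt6b with 7.45, rose in IMQ skin and also in LYS-High skin, both against control skin. The keratinocyte sums did not overlap between the IMQ and LYS-High groups. The neutrophil sums did not either, but this rested on Stfa3, and without it they overlapped, at 922 to 1670.3 CPM in IMQ and 666 to 983 CPM in LYS-High skin. Csf3r (0.92) and Itgam (1.14) had log2 fold changes above 0, while 13 of 15 and 8 of 8 of these markers had a log2 fold change below 0. By edgeR 0 of them were DEGs in that comparison, while 2 higher and 4 lower neutrophil markers and 4 lower keratinocyte markers passed an unadjusted 0.05, and the same numbers were called by DESeq2. Over all genes, 35.2% passed that p and 21.9% were called by DESeq2, both directions together. The part of neutrophils and keratinocytes in the values of the 10 genes was not tested.

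Saa3, which macrophages, fibroblasts and adipocytes are known to make, was read beside the markers of those cells. The macrophage and dendritic cell markers summed to 789 to 1088 CPM in the control group, 469.9 to 648 CPM in the IMQ group and 773 to 1904 CPM in the LYS-High group, with a median log2 fold change of 1.17 in LYS-High compared with IMQ skin. These markers did not move together, and 2 of 7 rose and 2 fell in IMQ compared with control skin, beside 24.1% and 26.9% of all genes. Itgax (1.78) and Cd207 (0.72) rose there, while Mrc1 (-1.66) and Cd163 (-1.1) fell. In LYS-High compared with IMQ skin, Itgax stood at -0.61 and Cd207 at -0.65. Fibroblast markers summed to 21734 to 28003, 3205 to 10288 and 8903 to 18025 CPM, and adipocyte markers to 6051 to 15217, 575 to 2423 and 1738 to 5415 CPM, in the same order of groups. In all these sums, every control library lay above every IMQ library. No gene of these lists was a DEG by edgeR in LYS-High compared with IMQ skin, while 5 of 7, 4 of 6 and 4 of 7 were higher at an unadjusted p under 0.05 and DESeq2 called 4 higher in each. Of all 15460 genes tested, 2978 were higher at that p and DESeq2 called 1972 higher. The part of these cells in the level of Saa3 was not tested. Skin identity held in the control libraries, where keratins and collagens were high, and markers of hair follicles (5 of 5) and skeletal muscle (5 of 5) fell in IMQ compared with control skin.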

How the data were processed

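Skin RNA was extracted with Trizol, and the NEBNext Ultra kit, which does not mark strand, was used to make libraries for Illumina sequencing. The authors deposited raw counts of reads per Ensembl gene for each library, which are whole numbers without normalization. They also deposited FPKM values, each the count per gene length and library total. The implied length equalled the exon length of GENCODE M21 within 0.1% for 98.5% of 29107 genes. The submitters' processing notes name GRCm38, HISAT2 and HTSeq 0.13.5 without stating their roles or a strand setting.

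Counts were tested with edgeR 4.0.16 in R 4.3.3 (TMM, filterByExpr, quasi-likelihood test, Benjamini-Hochberg), in fits that held the 6 libraries of a comparison and no block. Standard errors are the log2 fold change divided by the root of the F statistic. Alternatives used DESeq2 1.42.0, limma 3.58.1 on log2(FPKM + 1), other scaling, no filter, all 9 libraries, the replicate block and each library left out, of which DESeq2 and the block with all 9 libraries were chosen after seeing the data. The script was tested on simulated counts. Replicate numbers did not pair the samples, since the correlations of same-numbered libraries were not all over 0.1. Wilson intervals cover counting error only.

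The members, the other gene lists and the tests were chosen with earlier results of these data known, so they give no independent support. The text names all 10 members, from each list up to 4 DEGs of IMQ against control with the largest change and genes near 0 that define a cell type, and the 5 genes with the most similar profiles. Saa1, Saa2, Retnla, Tlr4, Prtn3, Mpo, Elane, Ngp, Ltf, Csf3r, Itgam and Stfa3 were named besides, after their values were seen. So were Il6, Il17a, Il20, Il24, Il1f6, Il1f8 and Il1f9. Promoters came from RefSeq on GRCm38.p6.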

Additional observations from a re-analysis of the deposited data

How the results depend on the processing

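S100a8, S100a9, Lcn2, Slpi, Defb3, Defb14 and Defb4 remained DEGs in IMQ against control skin under all 15 alternatives. The LYS-High against IMQ comparison depended most on the setting. Its DEGs numbered 0 in the text's fit, 2419 without the filter on low counts, 3392 with DESeq2, 3040 with all 9 libraries in a single fit, 4077 with DESeq2 on all 9 libraries and 0 to 4262 with each library left out (4262 without LYS-High 1, 1873 without IMQ 1, and 0 without any other). Of the 10 genes, the number called there was 0, but 1 without the filter, 2 with DESeq2 on the 6 libraries and 0 on all 9, and 0 to 1 with each library left out. DEGs of LYS-High against control numbered 4476, 2910 at an absolute log2 fold change over 1, and 2579 to 5072 with each library left out, the lowest without control 1. With the replicate block the DEGs numbered 8044, 0 and 3126 for IMQ against control, LYS-High against IMQ and LYS-High against control. Directions changed for Camp and Lcn2 in comparisons that were not called. The log2 fold change of Camp in IMQ against control was -0.31 without scaling, -0.16 with limma and -0.15 to 0.59 with each library left out. In LYS-High against IMQ it was -1.45 to 0.04 for Camp and -0.19 to 0.67 for Lcn2, and in LYS-High against control -1.36 to 0.16 for Camp, with each library left out. The 10 genes held 0.0357%, 9.27% and 6.52% of the summed FPKM of control, IMQ and LYS-High libraries, and 0.163% and 0.169% of the counts of the IMQ and LYS-High groups without the 20 most abundant genes, which include S100a8 and S100a9. The cause of these shifts was not tested. Reg3g, Camp and Defb4 had at most 37 counts in a library, which limits what could be detected for them.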
